A study of Ailuropoda melanoleuca with 25 samples.

Results

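The liver of the giant panda was compared with the heart, spleen, lung and kidney of the same animals. The liver was given by 5 of the 25 libraries, those labelled as liver tissue, and the other 4 tissues by 5 libraries each. Messenger RNA was sequenced in 1 library per tissue and panda, and libraries with the same number came from the same animal. Panda 1 was a female labelled with age 27 and ovarian cancer, panda 2 a female with age 9 and an "ileac pssion" as the labels spell it, pandas 3 and 4 females and panda 5 a male, each with age 0.5 and a coronavirus infection. The labels give no unit of age. There was no treatment or control group. The animals were sampled newly dead, and their tissue was kept in liquid nitrogen. Age and cause of death coincide in these 5 animals, so any parts they have in the spread between the livers cannot be told apart. Pandas 3, 4 and 5 share both, and panda 5 is the only male.

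Hepatocytes, the main cells of the liver, secrete most proteins of the blood plasma, among them lipoproteins, clotting factors, complement and carriers, and release acute phase proteins when the body meets infection or injury. They also turn ammonia into urea, break down amino acids, make bile acids, clear drugs and keep up the glucose and ketone supply between meals. Around them lie stellate cells, sinusoidal endothelium, Kupffer cells (the resident macrophages) and the epithelium of the bile ducts, which these whole-tissue libraries hold as well.

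Values are FPKM, the reads of a gene scaled by its length and by the reads counted on all genes. The libraries held between 13149580 and 21383380 reads on genes, and the livers between 15925960 and 21383380. One liver stood apart. Liver 3 had a median FPKM of 0.220 over all genes, against 0.757 to 0.938 in the other 4 livers, and 8725 genes above 1 FPKM against 12092 to 12534. Its 20 most abundant genes took 44.5% of all FPKM, against 29.9 to 39.5% in the other livers, although its depth of 18594378 reads lay within their range. Liver 3 correlated with the other livers at 0.826 to 0.877 (Pearson's r of log2(FPKM + 1) over 18701 genes), and the other livers with each other at 0.927 to 0.992. Among the livers of the same age and cause of death, r was 0.846 for Liver 3 with Liver 4, 0.877 for Liver 3 with Liver 5 and 0.927 for Liver 4 with Liver 5. Across these labels it was 0.992 for Liver 2 with Liver 4 and 0.969 for Liver 1 with Liver 5. The cause was not tested. Of 12355 genes with a mean above 1 FPKM in the liver, 64.6% were lower in Liver 3 than in all 4 other livers and 15.0% were higher. The highest correlation was that of Liver 2 with Liver 4, but their reads still differed beyond counting noise (median chi-square 2.87 per gene, against 11.9 to 66.6 for the other pairs), and no 2 columns were identical. Counts of DEGs are given with and without Liver 3, and so are the calls of some of the genes named below.

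The label of the tissue was set beside 3 liver markers. APOC1, an apolipoprotein of triglyceride-rich lipoproteins, reached 16479, 10958, 17518, 14173 and 20534 FPKM in Liver 1 to 5 and at most 654 FPKM in Kidney 5 among the 20 other libraries. AHSG, the plasma protein fetuin-A, reached 15048, 3410.0, 928, 3403 and 12099 FPKM in the same order and at most 1.81 FPKM in Lung 3 elsewhere. FGG, the gamma chain of fibrinogen, reached 5762, 3549, 1042, 2747 and 12293 FPKM and at most 2.12 FPKM in Lung 3. All 5 libraries labelled as liver thus stood above all 20 others for each marker, Liver 3 included. The study named APOC1 and AHSG for the liver from these same libraries, and the name of FGG comes from its table of tissue-specific genes. Their separation and the p-values below are therefore a description and no independent check of the labels. The smallest of the 4 differences of log2(FPKM + 1) was that from the kidney for each marker, with 5.47 ± 0.37 (SE, n = 5 and 5; adjusted p = 4.50e-07) for APOC1, 11.51 ± 0.63 (SE, n = 5 and 5; adjusted p = 7.76e-08) for AHSG and 11.09 ± 0.54 (SE, n = 5 and 5; adjusted p = 2.60e-08) for FGG.

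Differentially expressed genes (DEGs) had an adjusted p below 0.05 in limma with Benjamini-Hochberg adjustment and a log2 difference beyond 2, among genes whose mean FPKM exceeded 1 in either tissue of a comparison. Against the heart, 1039 of 14278 genes (7.28%) were higher in the liver and 1199 (8.40%) were lower. Against the spleen, 638 of 16201 genes (3.94%) were higher and 4203 (25.9%) lower. Against the lung, 553 of 16558 (3.34%) were higher and 4254 (25.7%) lower. Against the kidney, 371 of 15755 (2.35%) were higher and 1839 (11.7%) lower. The 4 comparisons share the liver libraries and are not independent of each other. In whole tissue, fewer cells of a type and less RNA per cell cannot be told apart.

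How many genes were lower depended on the scaling. The median log2 difference over all genes tested was -0.14 against the heart, -1.29 against the spleen, -1.28 against the lung and -0.89 against the kidney. After TMM rescaling, which sets a trimmed mean of the log ratios to 0, these medians were 0.06, -0.24, -0.25 and -0.13. The DEGs were then 1412 higher and 1282 lower against the heart, 1470 and 1206 against the spleen, 1447 and 1126 against the lung, and 679 and 926 against the kidney. Quantile normalization gave 1122 and 1113, 1255 and 1080, 1124 and 1023, and 644 and 682 in the same order. The higher share of all DEGs moved from 46.4, 13.2, 11.5 and 16.8% without rescaling to 52.4, 54.9, 56.2 and 42.3% after TMM rescaling and 50.2, 53.7, 52.4 and 48.6% after quantile normalization. Every gene that was higher without rescaling was also higher after TMM rescaling in each of the 4 comparisons. Liver 3 moved the counts too. Without it, 1263 genes were higher and 1045 lower against the heart, 725 and 3279 against the spleen, 620 and 3338 against the lung, and 431 and 1494 against the kidney.

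**Figure D1:**
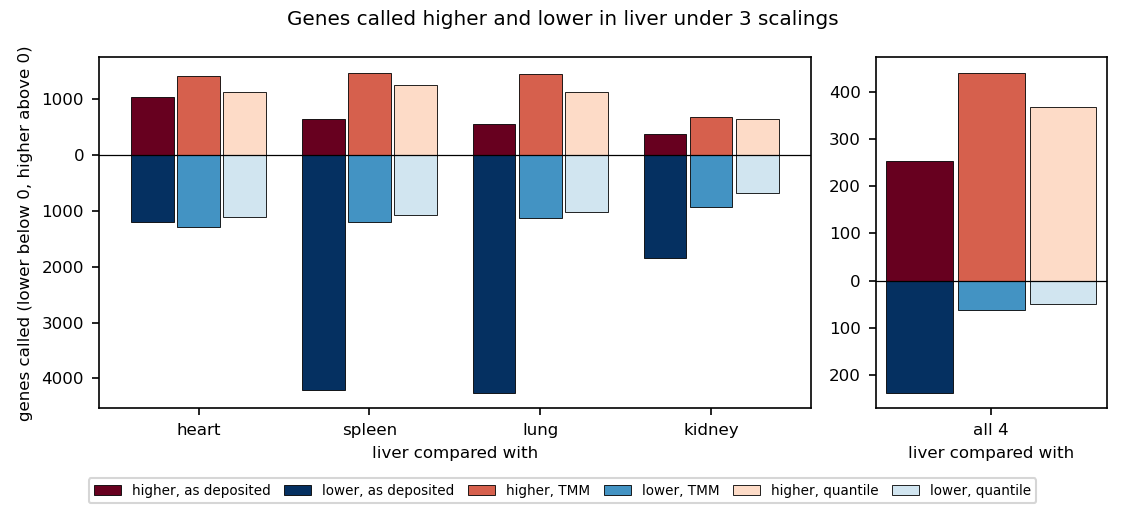
Number of DEGs higher (bars above 0) and lower (bars below 0) in the liver in each comparison and in all 4, for FPKM as deposited, after TMM rescaling and after quantile normalization, with 5 libraries a tissue. Against the spleen, 4203 genes were lower without rescaling and 1206 after TMM rescaling, whereas the genes higher went from 638 to 1470.

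In all 4 comparisons, 254 of the 13425 genes tested in each of them (1.89%) were higher in the liver and 237 (1.77%) lower. Of the 254 genes, 252 (1.88%) were also higher in all 4 after both rescalings, and 202 had their lowest liver above the highest of the 20 other libraries. The choice of the genes favours such separation, and its share over all genes tested was not counted. These 254 genes took 29.7 to 38.1% of all FPKM in the livers, with a median of 32.5%. They took 0.0566 to 0.319% in the hearts, 0.137 to 0.373% in the spleens, 0.410 to 0.589% in the lungs and 0.922 to 3.05% in the kidneys. Since the genes were chosen as higher in the liver, these shares are a description. Their mean liver level ran from 3.41 to 57081.7 FPKM with a median of 85.2 FPKM.

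Named genes with the widest distance from every other tissue were plasma proteins and enzymes of nitrogen and drug metabolism. AHSG and FGG led together with APOC2, the cofactor of lipoprotein lipase. APOC2 held 4927, 3614, 3647, 4610.3 and 8709.7 FPKM in Liver 1 to 5 and at most 2.46 FPKM in Kidney 4, with a smallest log2 difference of 11.11 ± 0.30 (SE, n = 5 and 5; adjusted p = 1.21e-09), against the spleen. HAMP, the iron hormone hepcidin, held 3443, 31403, 21633, 57134 and 5953 FPKM, at most 46.5 FPKM in Lung 4, and a smallest difference of 9.95 ± 0.84 (SE, n = 5 and 5; adjusted p = 1.60e-06), against the lung. All livers lay above all other libraries for both genes, with a range between livers that was wider for HAMP. SERPINA4, the kallikrein inhibitor kallistatin, held 1195, 2188, 3869, 2745 and 1086 FPKM and at most 2.61 FPKM in Lung 3. FETUB, a fetuin that inhibits proteases, held 1913, 858, 705, 1151 and 1725 FPKM and at most 0.628 FPKM in Lung 3. ARG1, the arginase that releases urea, held 579, 3298, 7418, 2755 and 799 FPKM and at most 7.32 FPKM in Lung 3. Liver 3 was the highest liver for SERPINA4 and ARG1 and the lowest for FETUB. CYP2E1, the cytochrome P450 that oxidizes ethanol and paracetamol, held 993, 893, 323, 1414 and 895 FPKM and at most 0.683 FPKM in Heart 4. The smallest differences of these 4 genes were 10.27, 9.83, 9.57 and 9.40 on the log2 scale, each past the threshold in all 4 comparisons.

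**Figure D2:**
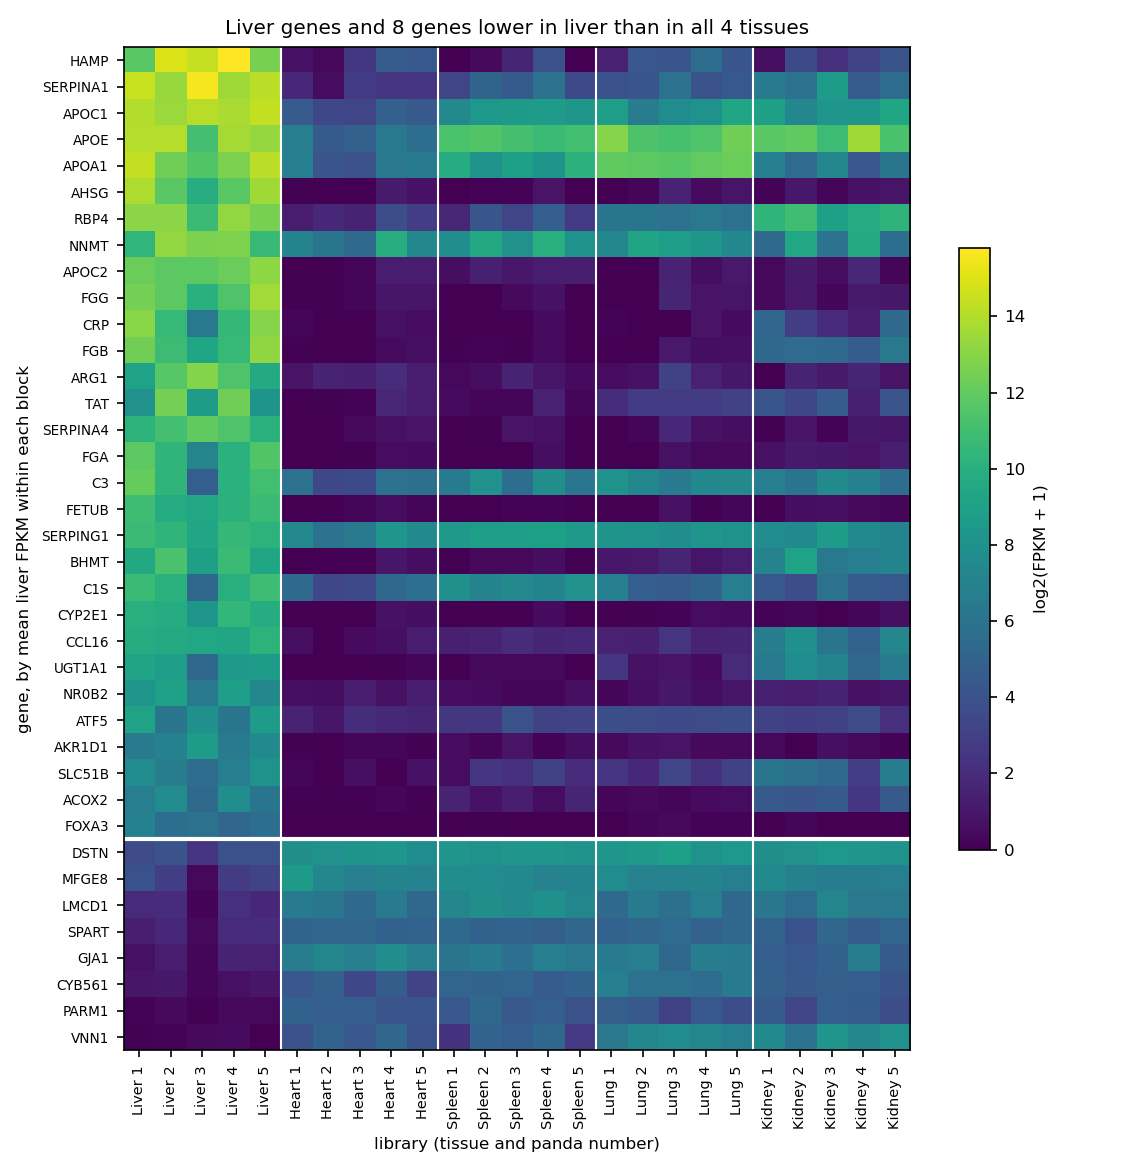
Level of 30 liver genes and 8 genes lower in the liver (rows) in the 25 libraries (columns, grouped by tissue), as log2(FPKM + 1) in colour. The liver columns are the high block for genes such as AHSG and FGG, with Liver 3 darker (lower) for several of them, and the low block for genes such as DSTN and MFGE8.

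Gene groups were read from lists by role. Gene names came only from genes the study had picked as tissue-specific on these same libraries. The counts below are thus descriptions and no independent evidence of a direction, and no test was made over a list. A name was available for 185 of the 254 genes higher in all 4 and for 42 of the 237 lower. The shares of all genes tested include genes without a name, which no list could hold, so they are not a like reference. Across the 12 lists of hepatocyte functions, 116 of 167 members with an identifier, all of them tested, were higher in the liver than in all 4 tissues and 2 were lower, beside 1.89 and 1.77% of all genes tested. Another 33 were higher in exactly 3 comparisons. The comparison they missed was that with the kidney for 18, the lung for 8, the spleen for 6 and the heart for 1. These misses moved with the scaling. After TMM rescaling 148 members were higher in all 4, beside 3.28% of all genes, and 9 in exactly 3, missing the kidney for 7, the spleen for 1 and the heart for 1. After quantile normalization 134 were higher in all 4, beside 2.74%, and 21 in exactly 3, missing the kidney for 12, the lung for 4, the heart for 3 and the spleen for 2. The misses named for single genes below are those without rescaling.

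**Figure D3:**
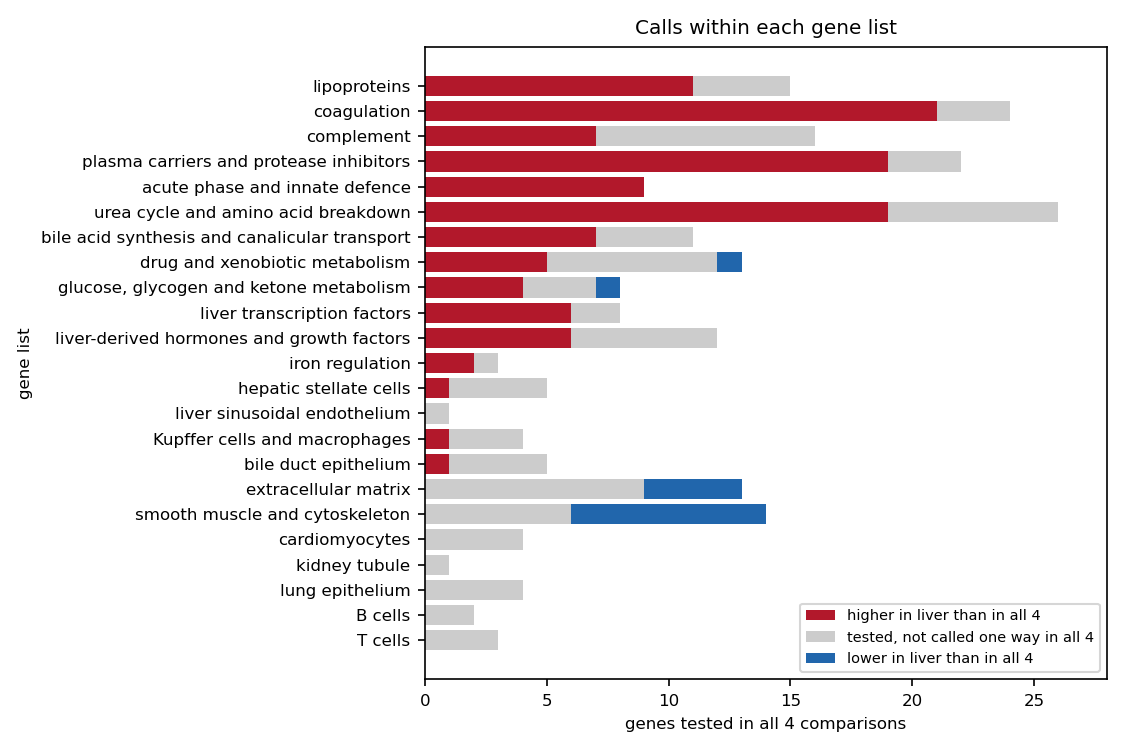
Stacked bars of the number of list members tested in all 4 comparisons that were higher in the liver than in all 4 tissues, lower than in all 4, or neither. Plasma protein lists such as coagulation (21 of 24 higher) stand at one end, and smooth muscle and cytoskeleton (8 of 14 lower) at the other. Of all genes tested, 1.89% were higher and 1.77% lower, and the lists were drawn up with earlier results known.

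Of 15 lipoprotein genes, 11 were higher in the liver than in all 4 tissues. The most abundant was APOC1, given above, followed by APOE and APOA1. APOE, the ligand for remnant uptake, held 16975, 16819.9, 2128, 13319.7 and 10226 FPKM in Liver 1 to 5, 2389 to 7786 FPKM in the lungs and 3495, 3916, 1819, 12018 and 2482 FPKM in Kidney 1 to 5. It was higher than in the heart and spleen, but its differences of 1.37 ± 0.55 (SE, n = 5 and 5; adjusted p = 0.0394) from the lung and 1.36 ± 0.61 (SE, n = 5 and 5; adjusted p = 0.0762) from the kidney were not past the threshold, and the groups overlapped in both. APOA1, the main protein of high-density lipoprotein, held 20539, 5274, 2893, 6683 and 18585 FPKM in the livers and 3276 to 4899.8 FPKM in the lungs, a difference of 1.08 ± 0.47 (SE, n = 5 and 5; adjusted p = 0.0558) that was not past the threshold. LCAT, which esterifies cholesterol on that particle, reached 137, 43.8, 60.5, 44.7 and 86.1 FPKM. Its differences from the spleen and lung were 1.72 and 1.71, short of the limit of 2. MTTP, which loads lipid onto apolipoprotein B, held 74.1, 35.8, 3.28, 27.7 and 93.5 FPKM in the livers and 2.59 to 24.6 FPKM in the kidneys. It missed only the comparison with the kidney, and passed there too without Liver 3. After TMM rescaling all 15 genes were higher in all 4 comparisons, APOE and APOA1 included. After quantile normalization 13 were, with LCAT and MTTP among them, whereas APOA1 still missed the lung and APOE the spleen, lung and kidney.

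Coagulation gave the largest group, with 21 of 24 genes higher than in all 4 tissues. The 3 fibrinogen chains were the most abundant. FGB held 5292, 1850.1, 632, 1518 and 9193 FPKM in Liver 1 to 5 and at most 77.7 FPKM in Kidney 5, and FGA held 3606, 1296, 146, 1109 and 2975 FPKM and at most 1.502 FPKM in Kidney 5. Liver 3 was the lowest liver for all 3 chains, and Liver 1 and Liver 5 the highest. The members that missed were F5, F11 and SERPINF2. F5, the cofactor of factor Xa, held 55.98, 24.99, 1.31, 25.3 and 32.5 FPKM in the livers and 45.2, 21.8, 44.9, 22.5 and 40.4 FPKM in Spleen 1 to 5, and was higher only than in the heart. Liver 3 was its lowest liver by far, and without Liver 3 it still missed a call in all 4 comparisons. F11 held 29.2, 25.3, 16.6, 31.8 and 31.4 FPKM and 8.18 to 16.3 FPKM in the lungs, with a difference of 1.13 ± 0.30 (SE, n = 5 and 5; adjusted p = 0.00445). SERPINF2, the inhibitor of plasmin, held 761, 296, 8.96, 245 and 367 FPKM in the livers and 163, 126, 91.8, 16.2 and 129 FPKM in Kidney 1 to 5, and it passed in all 4 comparisons once Liver 3 was left out. F11 passed in all 4 after both rescalings.

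Complement was more divided, with 7 of 16 genes higher than in all 4 tissues. These were C8A, C8B, C8G and C9 of the membrane attack complex, the regulators C4BPB and CFHR5, and the protease MASP2 of the lectin pathway. C3, on which the 3 pathways converge, held 4347, 1302, 24.8, 1109 and 2040.2 FPKM in Liver 1 to 5 and at most 273 FPKM in Lung 1. Liver 3 was the lowest liver by far and overlapped the other tissues, whereas the remaining livers lay above them. C1S, a protease of the first component, held 1747, 1091, 38.7, 941 and 1931 FPKM and 134 to 249 FPKM in the spleens. SERPING1, the inhibitor of that component, held 1738, 1315, 617, 1472 and 1194 FPKM in the livers and 356 to 496 FPKM in the spleens, with no overlap and a difference of 1.49 ± 0.29 (SE, n = 5 and 5; adjusted p = 5.83e-04) below the limit of 2. Without Liver 3 the count was 12 of 16, with C1R, C1S, C3 and C6 among those added, and after TMM rescaling and quantile normalization of all libraries it was 15 and 11.

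Of 22 plasma carriers and protease inhibitors, 19 were higher than in all 4 tissues. SERPINA1, the antitrypsin that inhibits neutrophil elastase, held 22712, 10328, 49208, 12066 and 18348 FPKM in Liver 1 to 5 and at most 421 FPKM in Kidney 3. RBP4, the carrier of retinol, held 8382, 8494, 1741, 9741 and 6041 FPKM in the livers and 1312, 1949.5, 504, 842 and 1247 FPKM in Kidney 1 to 5. Liver 3 was the highest liver for SERPINA1 and the lowest for RBP4, which overlapped the kidneys there. The 3 members that missed were CP, A2M and SERPINA7. CP, the copper protein ceruloplasmin, held 295, 327, 8.95, 254 and 543 FPKM in the livers and 302 to 515 FPKM in the spleens, a difference of -1.28 ± 0.87 (SE, n = 5 and 5; adjusted p = 0.196). Liver 3, the lowest by far, pulled this difference down, and the other livers overlapped the spleens. Without Liver 3, CP still missed a call in all 4 comparisons. A2M, a broad protease inhibitor that passed in all 4 after TMM rescaling, differed by 1.20 ± 0.61 (SE, n = 5 and 5; adjusted p = 0.0943) from the lung. SERPINA7, the thyroxine-binding globulin, held 5.07, 0, 0.867, 0 and 17.03 FPKM and was at 0 in all 20 other libraries. It had no reads in Liver 2 and Liver 4 either, and its difference did not pass.

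All 9 genes of acute phase and innate defence were higher than in all 4 tissues. HAMP, given above, was the most abundant, and CRP, the pentraxin that binds damaged membranes and bacteria, was next. CRP held 8202, 1547, 82.6, 1474 and 7659 FPKM in Liver 1 to 5 and at most 43.5 FPKM in Kidney 5, with a smallest difference of 7.34 ± 1.17 (SE, n = 5 and 5; adjusted p = 4.21e-04), against the kidney. CCL16, a chemokine made by hepatocytes, held 884, 809, 702, 653 and 1192 FPKM and at most 241 FPKM in Kidney 2. The 5 livers were close for CCL16, whereas CRP was lowest in Liver 3, where it still exceeded every other library. The other members were APCS, LBP, LEAP2, LECT2, PGLYRP2 and CPN1.

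Urea cycle and amino acid breakdown had 19 of 26 members higher than in all 4 tissues, among them CPS1 and OTC of the cycle itself, and also NAGS. ARG1 was the most abundant, followed by TAT and BHMT. TAT, which starts the breakdown of tyrosine, held 255, 5719, 428, 5367 and 286 FPKM in Liver 1 to 5 and at most 22.1 FPKM in Kidney 3. Liver 2 and Liver 4 were higher than the other 3 livers by more than 10 times. BHMT, which passes a methyl group from betaine to homocysteine, held 774, 2414, 495, 1760.0 and 623 FPKM in the livers and 133, 564, 82.03, 107 and 139.6 FPKM in Kidney 1 to 5, with a difference of 2.68 ± 0.56 (SE, n = 5 and 5; adjusted p = 0.00232) and groups that overlapped. Of the 7 members that missed, 5 were higher than in the other 3 tissues but not than in the kidney. Among these were FAH, KYNU, HAAO and DAO, enzymes of tyrosine, tryptophan and D-amino acids. KYNU passed in all 4 after both rescalings and also without Liver 3, and HAAO passed after TMM rescaling. DAO was lower in the liver than in the kidney, with 16.4, 1.36, 2.35, 1.55 and 8.13 FPKM in Liver 1 to 5 and 44.1 to 272 FPKM in the kidneys, a difference of -5.01 ± 0.63 (SE, n = 5 and 5; adjusted p = 7.47e-05). HOGA1, an aldolase of hydroxyproline breakdown, was lower there too, with 82.5, 21.3, 31.8, 13.8 and 53.1 FPKM in the livers, 112 to 758 FPKM in the kidneys and a difference of -3.69 ± 0.57 (SE, n = 5 and 5; adjusted p = 3.57e-04). For both, every liver lay below every kidney, and the lower call held under all 3 scalings.

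Among 11 genes of bile acid synthesis and canalicular transport, 7 were higher than in all 4 tissues. AKR1D1, which reduces the ring of the steroid precursor, held 91.9, 120.1, 408, 94.7 and 186 FPKM in Liver 1 to 5 and at most 0.8104 FPKM in Lung 3. ACOX2, the peroxisomal oxidase that shortens the side chain, held 107, 198, 42.7, 209 and 69.1 FPKM and at most 21.6 FPKM in Kidney 3. For both, all livers lay above all other libraries. SLC51B, a bile acid exporter of the basolateral side, held 194, 100.4, 49.2, 109 and 277 FPKM in the livers and 69.5, 56.6, 40.96, 6.46 and 103 FPKM in Kidney 1 to 5, and was the most abundant member after AKR1D1 without passing against the kidney. CYP8B1, which sets the share of cholic acid, held 13.4, 0.789, 0.893, 1.33 and 5.81 FPKM and at most 0.0766 FPKM in Kidney 2. Its lowest liver lay above every other library, yet it passed in no comparison without rescaling. Its smallest difference was 1.89 ± 0.50 (SE, n = 5 and 5; adjusted p = 0.00891), against the kidney. HSD3B7, which acts early in the pathway, differed by 1.76 from the spleen and 1.91 from the kidney, and ABCG5, a subunit of the sterol exporter, by at most 1.59 from any tissue. Both CYP8B1 and HSD3B7 passed in all 4 comparisons without Liver 3, and both passed after each rescaling, as did SLC51B.

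Drug and xenobiotic metabolism had 5 of 13 members higher than in all 4 tissues and 1 lower. After TMM rescaling 10 were higher and after quantile normalization 8. NNMT, which methylates nicotinamide, held 1356, 9529.8, 6708, 6826 and 1582 FPKM in Liver 1 to 5 and at most 1019 FPKM in Spleen 4. It was highest in Liver 2, Liver 3 and Liver 4. UGT1A1, which conjugates bilirubin, held 591, 453, 39.7, 355 and 422 FPKM in the livers and 81.8, 208, 138, 39.2 and 91.3 FPKM in Kidney 1 to 5, and missed only the comparison with the kidney, which it passed without Liver 3 and after TMM rescaling. SULT1C3, a sulfotransferase, held 23.3, 0, 31.6, 0 and 40.4 FPKM and at most 0.1497 FPKM in Lung 4. It had no reads in Liver 2 and Liver 4, and its call in all 4 comparisons was lost when Liver 1, Liver 3, Liver 5 or any 1 heart library was left out (smallest difference 2.56, 2.45, 2.37 and 2.96). The lower member was VNN1, a pantetheinase.

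Glucose, glycogen and ketone metabolism had 4 of 8 members higher than in all 4 tissues, among them GYS2, GCKR and PFKFB1, of glycogen synthesis and the control of glycolysis. FBP1, an enzyme of gluconeogenesis, held 516, 680.2, 1354, 804 and 478 FPKM in Liver 1 to 5 and 383, 316, 356, 106 and 489 FPKM in Kidney 1 to 5, with a difference of 1.27 ± 0.43 (SE, n = 5 and 5; adjusted p = 0.0273). PCK2, the mitochondrial PEP carboxykinase, likewise passed against 3 tissues and not the kidney. After TMM rescaling both passed in all 4, and after quantile normalization PCK2 did. LDHB, a lactate dehydrogenase subunit, was lower than in the heart (log2 difference -2.93) and passed in no other comparison. PFKP, the platelet form of phosphofructokinase in glycolysis, was lower than in all 4 tissues. It held 2.26, 2.31, 0.431, 1.53 and 1.69 FPKM in the livers and at least 15.5 FPKM in every other library.

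Of 8 transcription factors of the liver, 6 were higher than in all 4 tissues. NR0B2, the receptor that restrains bile acid synthesis, held 306, 521, 81.7, 440.5 and 164 FPKM in Liver 1 to 5 and at most 1.88 FPKM in Kidney 3. ATF5, a factor of the stress response, held 549.6, 69.4, 239, 71.01 and 434 FPKM and at most 14.3 FPKM in Spleen 3, and FOXA3, a pioneer factor, held 123, 51.6, 62.1, 36.1 and 51.2 FPKM and at most 0.347 FPKM in Lung 3. Every liver exceeded every other library for all 3. NR1H4, the bile acid receptor FXR, held 31.1, 24.5, 52.05, 30.1 and 66.6 FPKM in the livers and 38.3, 20.53, 29.2, 5.36 and 72.3 FPKM in Kidney 1 to 5, a difference of 0.59 ± 0.56 (SE, n = 5 and 5; adjusted p = 0.385). ONECUT1 held 11.1, 1.39, 0.1196, 1.396 and 5.48 FPKM and was at 0 in all 20 other libraries, with a difference of 1.79 that was below the limit of 2 and passed without Liver 3 and after TMM rescaling.

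Hormones and growth factors released by the liver had 6 of 12 members higher than in all 4 tissues, and 10 of 12 without Liver 3. HGFAC, the protease that activates hepatocyte growth factor, held 265, 89.97, 8.001, 68.9 and 125 FPKM in Liver 1 to 5 and at most 0.821 FPKM in Spleen 1. FGF21, a hormone of fasting and stress, held 251, 1.56, 0, 1.09 and 283 FPKM and at most 0.295 FPKM in Kidney 3. It was over 100 times higher in Liver 1 and Liver 5 than in the other livers. With all livers it passed against the spleen and lung alone, and without Liver 3 in all 4 comparisons. INHBE, an inhibin subunit secreted by hepatocytes, held 205, 14.7, 0.306, 10.6 and 80.4 FPKM, likewise highest in Liver 1 and Liver 5. Of the 3 iron genes, TFR2 and HFE2, which feed into the control of hepcidin, were higher than in all 4 tissues, with 537, 229, 5.07, 139 and 193 FPKM and 20.05, 2.33, 3.66, 1.93 and 13.2 FPKM. STEAP4, a metalloreductase, held at most 0.175 FPKM in a liver and was lower than in the spleen and lung (differences -4.07 and -3.60).

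The other cell types of the liver were covered by few named genes. Of 5 stellate cell genes, COLEC10 alone was higher than in all 4 tissues, with 45.98, 17.03, 0.129, 12.05 and 59.9 FPKM in Liver 1 to 5. COLEC11, a collectin like it, held 48.1, 10.6, 0.06402, 10.6 and 36.9 FPKM and joined it without Liver 3 and after each rescaling. LRAT, which stores retinol as esters, and LHX2 passed in no comparison, although LHX2 passed against the spleen and lung after quantile normalization. HAND2 was lower than in the heart, where it reached 84.8 to 281 FPKM, and higher than in the lung and kidney, with differences of 2.89 and 2.93, under all 3 scalings. The 1 sinusoidal endothelium gene, OIT3, held 25.4, 7.06, 0.885, 10.5 and 21.3 FPKM and differed by 1.66 from the spleen, its smallest difference, which passed without Liver 3 and after each rescaling. Liver 3 was the lowest liver for each of these 6 genes.

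Among 4 genes of Kupffer cells and macrophages, MS4A4A was higher than in all 4 tissues, with 28.4, 8.25, 7.05, 8.94 and 57.6 FPKM in Liver 1 to 5 and at most 3.77 FPKM in Spleen 3. CLEC10A, a lectin of macrophages and dendritic cells, held 27.1, 16.4, 6.95, 36.9 and 29.9 FPKM and missed the lung, which it passed after each rescaling. CD5L, which macrophages secrete, held 6.27, 93.3, 0.662, 53.002 and 5.42 FPKM in the livers and 1127 to 1624 FPKM in the spleens, where SPIC, a factor of iron-recycling macrophages, was higher as well (17.99 to 143 FPKM against at most 3.33 FPKM in a liver). CD5L was also higher in the liver than in the heart and kidney, which held at most 0.367 and 0.486 FPKM, and these calls held under all 3 scalings. Of 5 bile duct genes tested in all 4 comparisons, only TM4SF4 was higher than in all 4 tissues, with 984, 943, 113, 889 and 1139.7 FPKM and at most 4.79 FPKM in Kidney 5. KRT18 and KRT8, keratins that hepatocytes also make, held 449, 489, 316, 473 and 331 FPKM and 616, 677, 233, 479 and 315 FPKM and did not pass against the lung and kidney. For KRT18, every liver still lay above every other library. KRT7, which marks duct cells among liver cells, held at most 2.497 FPKM in a liver and was lower than in the lung and kidney under all 3 scalings. EPCAM, an adhesion molecule of epithelia, was lower there too and higher than in the heart, and its lower call against the lung was lost after TMM rescaling. After TMM rescaling 2 stellate, 1 sinusoidal, 2 Kupffer cell and 2 bile duct genes were higher than in all 4 tissues.

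Genes lower in the liver than in all 4 tissues numbered 237, and 40 of them (0.298% of the genes tested) were lower in all 4 after both rescalings as well. Of these 40 genes, 38 had their highest liver below the lowest of the 20 other libraries. Here too the choice of the genes favours such separation, and its share over all genes tested was not counted. Without Liver 3 and without rescaling, 150 genes were lower in all 4, of which 148 were among the 237. Liver 3 lay below the other 4 livers for 199 of the 237 (84.0%), against 64.6% of all genes with a liver mean above 1 FPKM. The 237 genes, with liver means from 0.0175 FPKM upward, were called with Liver 3 among the livers, which favours genes low in it. These shares are thus a description. The names available covered 17 of the 40. DSTN, the actin-severing protein destrin, held 11.8, 15.4, 4.32, 13.995 and 13.99 FPKM in Liver 1 to 5 and at least 207 FPKM in every other library, with a smallest difference of -4.41 ± 0.33 (SE, n = 5 and 5; adjusted p = 4.40e-07), against the heart. LMCD1, a LIM protein of muscle, held 2.61, 3.03, 0.103, 3.54 and 2.32 FPKM and at least 38.1 FPKM elsewhere. MFGE8, a secreted bridge between dying cells and phagocytes, held 14.8, 6.71, 0.258, 6.15 and 8.61 FPKM and at least 96.9 FPKM. Every liver lay below every other library for these 3 genes.

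GJA1, the gap junction protein connexin 43, held 0.653, 1.42, 0.187, 1.86 and 1.71 FPKM in Liver 1 to 5 and at least 18.5 FPKM in the other libraries, with its highest level of 213 FPKM in Heart 4. PARM1 held 0.118, 0.328, 0.0594, 0.347 and 0.258 FPKM and at least 7.14 FPKM, and SPART, the spastic paraplegia protein spartin, held 1.48, 2.49, 0.239, 2.698 and 2.98 FPKM and at least 14.53 FPKM. CYB561, an ascorbate-dependent reductase of secretory vesicles, held 0.981, 1.04, 0.141, 0.657 and 0.917 FPKM and at least 8.41 FPKM. VNN1 held 0.0651, 0.0901, 0.327, 0.381 and 0 FPKM in the livers and 63.95 to 306 FPKM in the kidneys, with a smallest difference of -3.76 ± 0.54 (SE, n = 5 and 5; adjusted p = 7.52e-05), against the spleen. The smallest differences of the other 4 genes were -3.97 for GJA1, -3.78 for PARM1, -3.31 for SPART and -3.30 for CYB561, each past the threshold in all 4 comparisons.

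**Figure D4:**
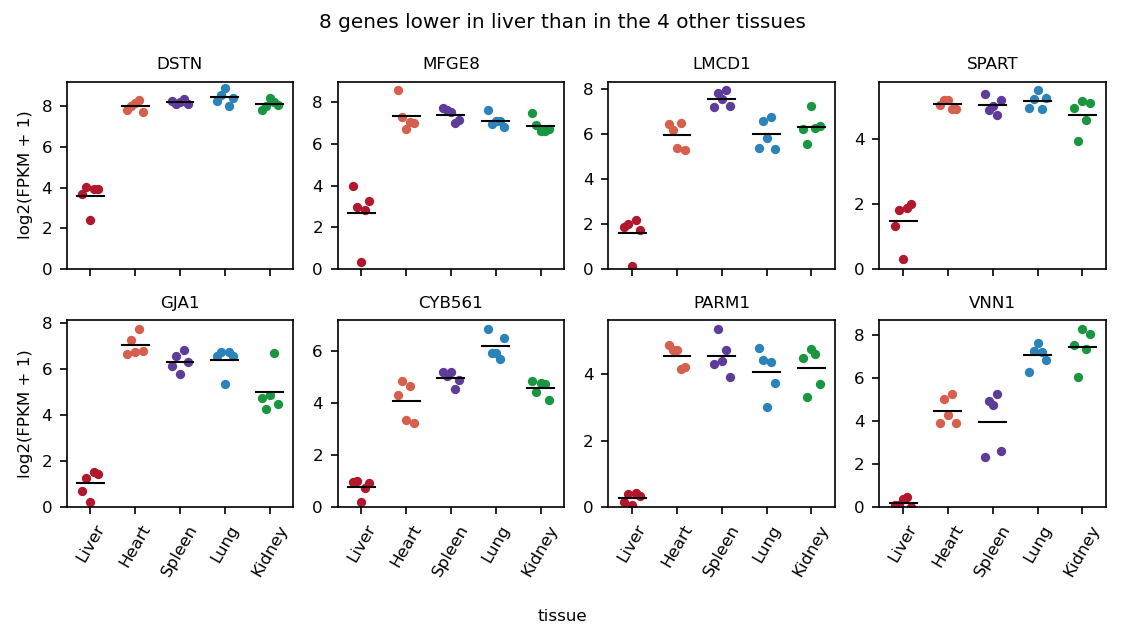
Level as log2(FPKM + 1) of 8 genes lower in the liver than in all 4 tissues (panels), with 1 point a library by tissue and a line at the mean of the tissue (n = 5). In each panel the 5 liver points lie below the other 20, and for most genes Liver 3 is the lowest.

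Smooth muscle and cytoskeleton genes were the list with the most members lower in all 4, 8 of 14, beside 1.77% of all genes tested, and none was higher in all 4. The list was drawn up with earlier results known, so this rank is a description. The 8 were MYH11, DSTN, SYNM, TES, LIMCH1, DPYSL3, LMCD1 and MYL9. Of them, 4 remained under the other 2 scalings (DSTN, LIMCH1, LMCD1 and MYL9), beside 0.298% of all genes tested. MYL9, the regulatory light chain of smooth muscle myosin, held 47.4, 14.3, 1.21, 21.8 and 39.7 FPKM in Liver 1 to 5 and 422 to 1197 FPKM in the hearts, with a smallest difference of -3.14 ± 0.68 (SE, n = 5 and 5; adjusted p = 0.00291), against the kidney. WASF3, which steers actin branching, held 6.95, 24.8, 9.08, 31.4 and 4.62 FPKM in the livers and at most 6.89 FPKM in Heart 4, and it passed in no comparison without rescaling but was higher than in the spleen, lung and kidney after each rescaling. Of 13 matrix genes tested in all 4, 4 were lower (CCDC80, ADAMTS5, ADAMTS8 and MFGE8), 1 of them (MFGE8) under all 3 scalings, and 2 were higher after TMM rescaling. The matrix protein FN1, which hepatocytes secrete into plasma, held 802, 756, 22.7, 839.8 and 450.4 FPKM and was higher than in the heart and kidney, and PCOLCE, which helps to process procollagen, held 314, 125, 6.82, 114 and 131 FPKM and was higher than in the heart and spleen. The summed FPKM of the smooth muscle list was 86.9, 81.1, 20.1, 99.7 and 77.8 in Liver 1 to 5, so that Liver 3 was lowest, against 1089.9 to 1943 in the hearts.

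The named genes with the largest deficit in a single comparison were abundant in the other tissue. Against the heart these were MYL2, TNNC1 and CKM, of the contractile and energy apparatus of muscle. MYL2 held 0, 0.0821, 4.55, 9.68 and 0.6204 FPKM in Liver 1 to 5 and 23304 to 34419 FPKM in the hearts, a difference of -13.46 ± 0.59 (SE, n = 5 and 5; adjusted p = 3.05e-09). TNNC1 and CKM differed by -13.15 and -13.12. Liver 4 was the highest liver for all 3, followed by Liver 3. All 10 cardiomyocyte genes were lower than in the heart, beside 8.40% of all genes, and their summed FPKM was 2.82, 1.03, 11.96, 27.05 and 3.102 in Liver 1 to 5 and 68992 to 84365 in the hearts.

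Against the lung the largest deficits were those of SFTPC and SFTPB, surfactant proteins of alveolar cells, and of CXCL17, a mucosal chemokine, at -13.07, -11.22 and -10.63 on the log2 scale. SFTPC held 0.274, 0.168, 1.55, 9.61 and 0.875 FPKM in Liver 1 to 5 and 11570.0 to 40781 FPKM in the lungs. All 10 genes of lung epithelium were lower than in the lung, beside 25.7% of all genes. Against the kidney the largest deficits were those of FXYD2, a subunit of the sodium pump, of the peptide hormone CCK and of UMOD, the urinary protein uromodulin, at -10.11, -9.55 and -8.00. UMOD held 0, 0, 0.223, 0.0325 and 0.0242 FPKM in the livers and 783, 248, 1217, 15.4 and 361 FPKM in Kidney 1 to 5. All 11 kidney tubule genes tested were lower than in the kidney, beside 11.7% of all genes. Their summed FPKM was 2.47 to 9.19 in the livers and 1099 to 13484 in the kidneys, lowest in Kidney 4. Without Kidney 4, 364 genes were higher and 2236 lower in the liver than in the kidney, and 242 and 222 in all 4 comparisons.

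Against the spleen the largest deficits were those of IGHM, the heavy chain of immunoglobulin M, of MADCAM1, an adhesion molecule of lymphoid vessels, and of JCHAIN, which joins immunoglobulin subunits. IGHM held 10.5, 11.3, 14.7, 10.9 and 5.48 FPKM in Liver 1 to 5 and 3989 to 9547 FPKM in the spleens, a difference of -9.24 ± 0.31 (SE, n = 5 and 5; adjusted p = 3.58e-09). MADCAM1 and JCHAIN differed by -7.50 and -7.38. All 10 B cell genes and all 10 T cell genes were lower than in the spleen, beside 25.9% of all genes, and after each rescaling 9 B cell genes and all 10 T cell genes were lower. The B cell genes summed to 4.22 to 8.89 FPKM in the livers and 511 to 1005 FPKM in the spleens, and the T cell genes to 5.63 to 9.72 and 269.7 to 1929.5. Against the lung, 3 of 9 B cell genes and 5 of 10 T cell genes were lower, beside 25.7% of all genes, but at most 1 gene of either list was lower after TMM rescaling or quantile normalization, so that this direction depended on the scale. CD3E, a subunit of the T cell receptor complex, held 0.796, 1.96, 1.06, 1.14 and 0.849 FPKM in the livers.

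The genes of the liver itself varied widely between the 5 livers. By range of log2(FPKM + 1), SDS, INHBE, SLC13A5, CRP and A1BG were the widest among named genes higher in all 4 tissues. SDS, a dehydratase of serine that feeds gluconeogenesis, held 2.17, 335, 294, 284 and 0.945 FPKM in Liver 1 to 5, high in Liver 2, 3 and 4 and near the level of other tissues in Liver 1 and Liver 5. SLC13A5, the importer of citrate, held 9.09, 126, 0.237, 117 and 2.09 FPKM, high in Liver 2 and Liver 4 alone. Its smallest difference was 3.19 ± 1.12 (SE, n = 5 and 5; adjusted p = 0.0216), against the lung, and the call was lost without Liver 4 (2.43). A1BG, a plasma glycoprotein, held 1273, 418, 13.3, 391 and 697 FPKM, lowest in Liver 3.

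Liver 3 lay below all other livers for 141 of the 254 genes higher in all 4 tissues (55.5%) and above them for 45 (17.7%). This compares with 64.6 and 15.0% of all genes expressed in the liver. The 254 genes were called with Liver 3 among the livers, which favours genes that are not low in it, so these shares are a description. Against the median of the other 4 livers, it was furthest below for AGT, ANGPTL8 and CRP. AGT, the precursor of angiotensin, held 1466, 1436, 21.8, 1392 and 659 FPKM in Liver 1 to 5, and ANGPTL8, which inhibits lipoprotein lipase, held 124, 43.01, 0.653, 56.7 and 117 FPKM, so that Liver 3 reached the level of other tissues. By the same measure it was furthest above for SULT1C3, SDS and ARG1, given earlier. Liver 3 was the highest liver for ARG1 alone. SULT1C3 and SDS were higher in another liver, and their other 4 livers split into high and low ones, with the median between. The part of the lower median level of Liver 3 in these values was not tested. Without Liver 3, 288 genes were higher in all 4 tissues, and 238 of the 254 were among them.

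**Figure D5:**
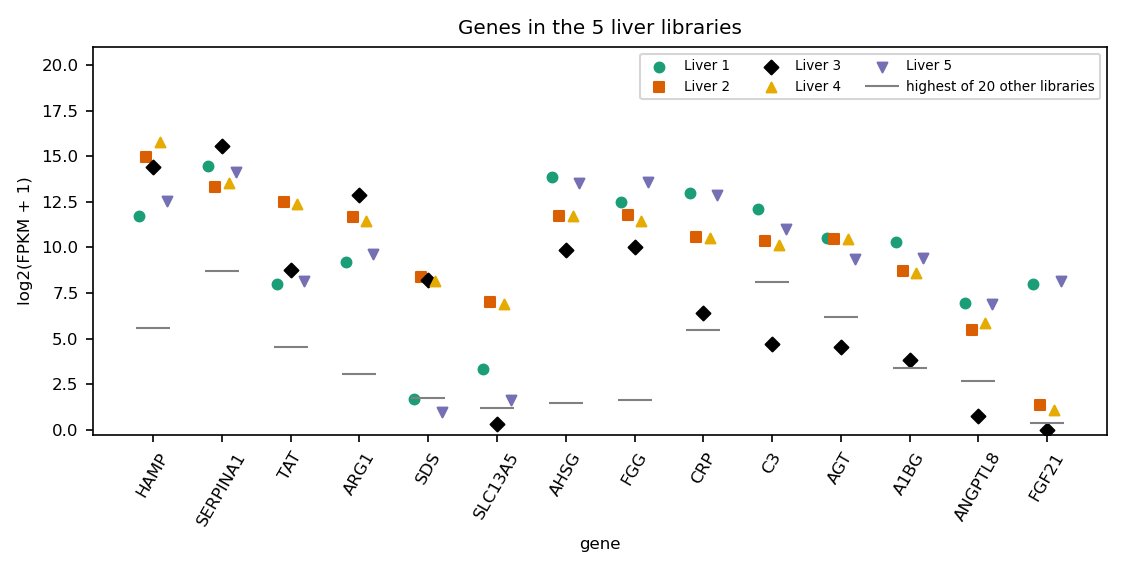
Level as log2(FPKM + 1) of 14 genes (columns) in each of the 5 livers (points, 1 marker a liver), with a grey dash at the highest of the 20 other libraries. For FGF21 and SDS the livers split over a range of more than 100 times, and Liver 3 is the lowest point for AGT, C3 and ANGPTL8.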

How the data were processed

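Poly(A)-selected RNA of 5 tissues from 5 pandas was sequenced in 25 libraries. The authors aligned the reads to the ailMel1 genome with HISAT2, assembled further transcripts with Cufflinks, counted reads per gene with HTSeq, and deposited FPKM computed from these counts and the gene lengths. No normalization between libraries was applied to the deposited FPKM. Genes of a family with near-identical copies, such as SERPINA or UGT genes, can lose or share reads in such counting, and their levels are less certain. The authors tested tissues with DESeq, which was not used here.

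Each tissue pair was tested with limma (version 3.58.1 in R 4.3.3) with a variance trend on log2(FPKM + 1), a scale that understates changes of low genes, for genes whose mean FPKM exceeded 1 in either tissue. The limits for DEGs were an adjusted p of 0.05 (Benjamini-Hochberg, over all genes tested) and a log2 difference beyond 2. A gene counted in all 4 comparisons was a DEG in the same direction in each. The fit was checked on simulated data. Other processing used Python 3.11.15 with numpy 2.4.6 and pandas 2.3.3, and matplotlib 3.10.9 for figures.

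Whole read numbers were worked back from the spacing of low FPKM values in each gene, within a tolerance of 0.05 reads, and gave the depth per library and a limma-voom alternative. With the reads here, 1 read in a gene of 1000 bases was worth 0.0468 to 0.0760 FPKM, and values near that level rest on a few reads.

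The members and lists were chosen with earlier results of these data known. The 23 lists hold 351 symbols, of which 267 had an identifier through 1778 names of the study's table of tissue-specific genes. Names misread in that table, and symbols of the LOC form, were counted and not named, apart from those given with their description under other observations. Named genes were the 3 markers, the 3 most abundant members of each list and every member not higher in all 4 comparisons where these were 5 or fewer, the 3 largest differences per comparison and direction among DEGs kept under 3 scalings without overlap, the 8 with the largest smallest difference in each direction, and the 5 widest and 6 most shifted in Liver 3. Some results of that rule are not reported here. Other members of a list are named with its count and were chosen after their values were seen.

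Same-numbered libraries were the same panda by label, and p-values describe the spread between animals. After removal of tissue means, the liver correlated with the other tissues of its own panda at 0.0600 to 0.504 (median 0.364, 19 of 20 above 0.1) and with those of other pandas at -0.411 to 0.360 (median -0.133). Deviations from a tissue mean cancel over the pandas, so part of this contrast is built in. No interval or floor was drawn from the reads. No sequences or coordinates were used here.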

Additional observations from a re-analysis of the deposited data

Results flagged for a closer look

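Among 137 groups of 5 values, 14 had 1 library that lay apart from the other 4 by Dixon's test (critical value 0.71). Chance flags about 1 in 20 such groups if values are normally distributed, which was not checked for these FPKM on their raw scale. Groups that share genes or a library are not independent. The causes were not tested.

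Of these 14, 7 concerned Liver 3. Its median FPKM was 0.220, it had 8725 genes above 1 FPKM, and its TMM factor was 0.277. TM4SF4 was lowest there at 113 FPKM, as were the summed bile duct list at 664 FPKM and the summed smooth muscle and cytoskeleton list at 20.06 FPKM. CCK was highest there, at 1.39 FPKM, which is far below its kidney level.

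Liver 4 was highest for 3 values of lung genes, with SFTPC at 9.61 FPKM, SFTPB at 1.40 FPKM and the summed lung epithelium list at 20.55 FPKM. All 3 stayed far below the lungs, whose summed list ran from 15310.4 FPKM upward, and the summed cardiomyocyte list was highest in Liver 4 too, at 27.05 FPKM.

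The remaining 4 were single values. APOC2 was highest in Liver 5 at 8709.7 FPKM and PCK2 in Liver 1 at 335 FPKM. The summed B cell list was lowest in Liver 5 at 4.22 FPKM. Among the hearts, Heart 4 had the highest share of FPKM on the genes higher in the liver than in all 4 tissues, at 0.319%.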

How the results depend on the processing

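Counts of DEGs are given as higher and lower in the liver. TMM rescaling gave 1470 and 1206 against the spleen, 1447 and 1126 against the lung, 679 and 926 against the kidney, and 440 and 62 in all 4, and quantile normalization 1255 and 1080, 1124 and 1023, 644 and 682, and 368 and 50. A pseudocount of 0.1 gave 1639 and 2233 against the heart, 7300 lower against the spleen, 7637 lower against the lung, 565 and 4007 against the kidney, and 789 lower in all 4. limma-voom on recovered reads gave 1954 and 2042 against the heart, 1884, 1855 and 919 higher against the spleen, lung and kidney, and 571 higher in all 4. TMM rescaling without Liver 3, chosen after seeing the data, gave 1354 and 1084 against the spleen, 1308 and 982 against the lung, 728 and 847 against the kidney, and 440 and 42 in all 4. The cause of these moves was not tested. With 1 library omitted at a time there were 980 to 1263 genes higher and 1045 to 1295 lower against the heart, 613 to 725 and 3279 to 4555 against the spleen, 526 to 620 and 3338 to 4607 against the lung, 363 to 431 and 1494 to 2236 against the kidney, and 242 to 288 and 150 to 306 in all 4. The lowest of these lower counts against the spleen, lung and kidney and in all 4 came without Liver 3. With the panda as a block, the paired fit gave 260 and 244 in all 4, and it moved no count by more than 1.5 times. No filter, a minimum mean of 5 FPKM and 1 fit of all libraries likewise moved none. Of the 47 named genes called in all 4 comparisons, SULT1C3 lost its call without a filter, with limma-voom, under TMM rescaling without Liver 3 and in the fits named in the report, SLC13A5 without Liver 4, and MYL9 under TMM rescaling without Liver 3 (-1.56), and no direction changed. For each named gene not called in all 4, the comparisons in which it was higher and those in which it was lower were counted, 128 counts in all. Of these, 39 changed under TMM rescaling, 31 under quantile normalization, 35 under TMM rescaling without Liver 3, 40 with limma-voom, 21 with a pseudocount of 0.1 and 14 without Liver 3, and at most 8 under any other alternative. Depth limits the genes near 1 FPKM, where a few reads move a value.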

Other observations

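Several genes not counted in the lists were higher in the liver than in all 4 tissues, and they are named here after their values were seen. The most abundant with a description was haptoglobin, the scavenger of free hemoglobin, with 49398, 43695, 5622, 37832 and 43948 FPKM in Liver 1 to 5 (LOC100482523). Its highest value elsewhere was 5789 FPKM, so that Liver 3 alone overlapped the other tissues. The symbol HP stood in the list of plasma carriers but was paired with no identifier, so the counts of that list leave haptoglobin out. Both subunits of the asialoglycoprotein receptor, ASGR1 and ASGR2, which take up desialylated plasma proteins, were higher in all 4 comparisons. ASGR1 held 617, 424, 234, 506 and 632 FPKM in Liver 1 to 5 and at most 43.5 FPKM in Spleen 2, and ASGR2 held 139.8, 54.4, 7.05, 61.1 and 101 FPKM and at most 1.12 FPKM in Spleen 1, so that all livers lay above all other libraries for both. An identifier described as L-gulonolactone oxidase, the last enzyme of vitamin C synthesis, held 148, 2.91, 3.04, 2.30 and 73.6 FPKM (LOC100478547), with at most 1.69 FPKM elsewhere. It was highest in Liver 1 and Liver 5, as FGF21 and INHBE were. Of the 254 genes, 185 had a name. Among the others was ENSAMEG00000004932, with 39682, 18888, 157960 and 16307 FPKM in Liver 1 to 4 and 42218 FPKM in Liver 5.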
